A study of Mus musculus with 6 samples.

Results

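The genes described here are 39 markers of the vessels that form the blood-brain barrier, measured by RNA-seq in the whole brain of adult mice. They were taken by gene symbol from a count table of 37310 genes. The set holds 30 genes of brain endothelium and 9 genes of the mural cells that wrap the vessels, of which 6 mark pericytes and 3 mark smooth muscle. All 39 are protein-coding and lie on 17 chromosomes.

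Brains came from male C57BL/6 mice aged 12 weeks, all of them *Ifih1*-/-, that is, without MDA5, the sensor that detects unedited double-stranded RNA. In the E861A group, *Adar1* E861A/E861A *Ifih1*-/-, both *Adar1* alleles carried a point mutation that removes the adenosine-to-inosine editing activity of ADAR1. The comparison group, *Adar1*+/+ *Ifih1*-/-, is called WT here and refers to *Adar1* only. Each genotype had 3 libraries from separate animals, and mice with intact *Ifih1* are not analysed here. The mutation was present in every cell, so a level in whole brain does not show in which cell ADAR1 editing was missing. The E861A libraries held 26853488 to 36285305 counts and the WT libraries 35702138 to 38076753 counts.

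Brain endothelial cells are sealed to each other by tight junctions, form few transport vesicles, and they carry nutrients and exclude drugs through dedicated transporters. Pericytes share their basement membrane and maintain these properties, while smooth muscle cells set the diameter of arterioles. The VEGF, angiopoietin and TGF-beta receptor families maintain the adult endothelium, and pericytes are recruited through PDGF signalling.

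Each of the 39 genes was counted in all 6 libraries, with between 49 reads and 3509 reads per gene and library, so the vessel markers were present in the tissue as labelled. Values are given as CPM, the read count of a gene scaled to the total of its library. Fold changes are E861A over WT on the log2 scale from edgeR's quasi-likelihood test, and a gene is called when its Benjamini-Hochberg adjusted p over all 13649 tested genes is under 0.05. In total, 38 of the 39 members passed the CPM filter, and the transcription factor gene *Sox18* did not.

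The vascular genes sat together on the lower side in E861A brain, each by a small amount. Of the 38 tested members, 37 had a negative log2 fold change, against 50.5% of all tested genes. The median log2 fold change was −0.26 in the 29 tested endothelial members, a level 16.5% lower, and −0.18 in the 9 mural members, 11.5% lower. The median of all tested genes was −0.0010, and 3.28% of them lay below a log2 fold change of −0.2. Members of one tissue vary together, so their number does not count as replication.

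**Figure D1:**
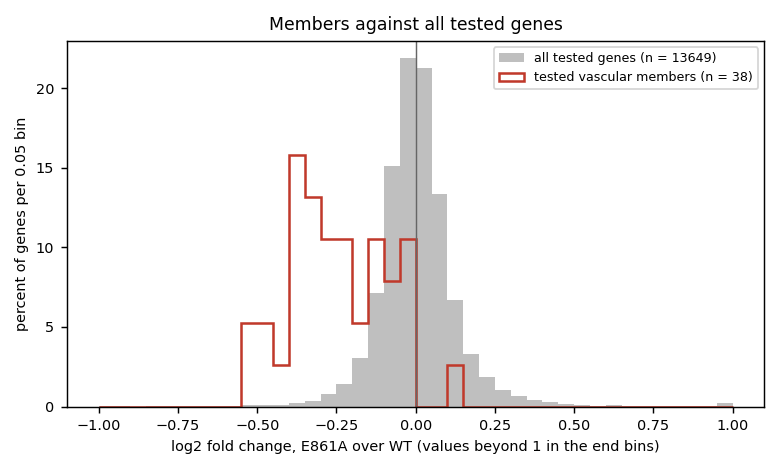
Distribution of fitted log2 fold changes (x axis, E861A over WT) as the percent of genes in each bin of 0.05 (y axis), for all 13649 tested genes in grey and the 38 tested vascular members in red. The member outline lies left of 0 apart from 1 gene, *Ly6a*.

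In the fit reported here, without a block, no member passed the adjusted threshold. The number called varied with the test and with a replicate block. By edgeR's quasi-likelihood test, 0 of 38 members were called lower, where 13 of all tested genes (0.0952%) were. The smallest adjusted p among the members was 0.0717, for *Rgs5*. At an unadjusted p under 0.05, 18 of 38 members were lower (47.4%) against 4.23% of all tested genes. With the same counts, DESeq2 called 2 members lower, where 0.161% of all tested genes were. The edgeR likelihood ratio test called 7 members lower, beside 0.359% of all tested genes, and limma-voom 0, beside 0.0952%. When the replicate number was added as a block, 4 members were called lower (10.5%) against 0.403% of all tested genes, namely *Slc2a1*, *Mfsd2a*, *Rgs5* and *Abcc9*. This block was adopted from correlations in these same counts, and the study describes no pairing of animals. Every E861A library lay below every WT library in 13 of 38 members (34.2%) and in 6.81% of all tested genes, and the opposite order occurred in 0 members and 6.98% of all tested genes. E861A was below WT in all 3 same-numbered pairs in 22 members (57.9%) against 18.0% of all tested genes.

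The libraries differed in how far they carried this pattern. E861A replicate 1 had the lowest CPM of the 6 libraries in 29 of 39 members, and WT replicate 1 the highest in 22. Without E861A replicate 1, 34 of 38 members were still lower, but the endothelial median was −0.15, 12 members were lower at an unadjusted p under 0.05, beside 4.37% of all tested genes, and edgeR's quasi-likelihood test called 0, beside 0.0804%. The 13 members without overlap between genotypes in that setting stood beside 15.6% of all tested genes. Without E861A replicate 2 the endothelial median was −0.36. In that setting 5 members were called lower, beside 0.260% of all tested genes, and 24 did not overlap, beside 13.4%. Without WT replicate 3 the non-overlapping members were 23, beside 11.3% of all tested genes. The library of E861A replicate 1 also held pituitary hormone transcripts, with a summed 439 CPM over 5 pituitary markers against 1.30 to 3.31 CPM in the other 5 libraries, and the part of that tissue in the vascular values was not tested.

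**Figure D2:**
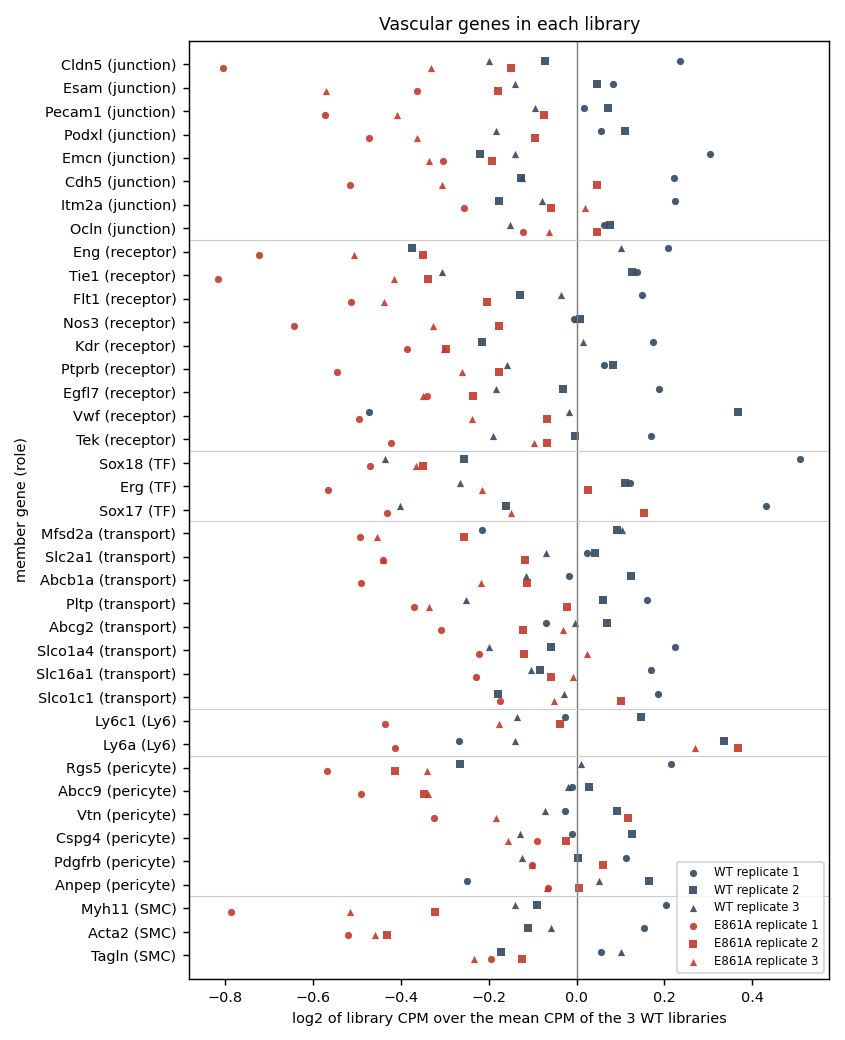
Level of each of the 39 vascular genes in each library (x axis, log2 of the CPM over the mean CPM of the 3 WT libraries), grouped by role (y axis, SMC for smooth muscle and TF for transcription factors), with WT in blue and E861A in red and the shape giving the replicate number. Most red circles, E861A replicate 1, lie furthest left, and the red squares, E861A replicate 2, often lie among the WT points.

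Among the 8 barrier transport genes, *Slc2a1* and *Mfsd2a* were called lower in the blocked fit, while the organic anion carriers and the lactate carrier had small differences. *Slc2a1* (ENSMUSG00000028645, mm9 chromosome 4, 118781316 to 118809935) encodes GLUT1, the glucose transporter of the barrier. Its level was 38.6, 48.3 and 38.6 CPM in E861A replicates 1 to 3 and 53.2, 53.9 and 49.9 CPM in WT replicates 1 to 3. All E861A values were below all WT values, and the second E861A library came nearest to WT. The means were 41.8 ± 5.58 CPM and 52.3 ± 2.17 CPM (SD, n = 3 each), a log2 fold change of −0.32 ± 0.08 (SE). The adjusted p of edgeR's quasi-likelihood test was 0.175, and 0.0147 with the replicate block.

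*Mfsd2a* (ENSMUSG00000028655, mm9 chromosome 4, 122624093 to 122638431) encodes the transporter that brings lysophosphatidylcholine with docosahexaenoic acid into the brain and keeps vesicle transport across the endothelium low. It was at 9.91, 11.7 and 10.2 CPM in E861A replicates 1 to 3 and at 12.0, 14.8 and 14.96 CPM in WT replicates 1 to 3. The genotypes did not overlap, with WT replicate 1 close to E861A replicate 2. The log2 fold change was −0.39 ± 0.10 (95% interval −0.61 to −0.17), 23.7% lower, with an adjusted p of 0.211 by edgeR's quasi-likelihood test and 0.0281 with the replicate block.

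The other 6 transport genes were not called in either fit. *Abcb1a*, the P-glycoprotein efflux pump, was at 20.5, 26.6 and 24.7 CPM in E861A and 28.4, 31.3 and 26.6 CPM in WT. The genotypes overlapped at 26.6 CPM, and the log2 fold change was −0.26 ± 0.09. *Pltp*, a phospholipid transfer protein, had a log2 fold change of −0.22 ± 0.11, and *Abcg2*, a second drug efflux pump, −0.15 ± 0.09. The organic anion carriers *Slco1a4* and *Slco1c1*, the latter a thyroxine carrier, had log2 fold changes of −0.10 ± 0.09 and −0.03 ± 0.09, with a 95% interval of −0.22 to 0.16 for *Slco1c1*. *Slc16a1*, the monocarboxylate and lactate carrier MCT1, had −0.09 ± 0.08. *Abcb1a* and *Slco1a4* have close paralogs, and reads shared between copies could be lost or split by the counting.

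Among the 9 receptor and signalling genes all had negative fold changes, against 50.5% of all tested genes. At an unadjusted p under 0.05, 7 were lower, beside 4.23% of all tested genes. In 6 of them each E861A library lay below each WT library, beside 6.81% of all tested genes. The median log2 fold change of the 9 was −0.32, a level 20.02% lower, and 0 were called in either fit. The summed CPM of the 9 was 128, 161 and 146 in E861A and 194, 182 and 173 in WT, without overlap. *Flt1* (ENSMUSG00000029648, mm9 chromosome 5, 148373180 to 148537587), which encodes VEGFR1, was at 44.7, 55.5 and 47.1 CPM in E861A and 70.8, 58.4 and 62.3 CPM in WT. Its second E861A library came nearest to WT, and the means were 49.1 ± 5.64 and 63.8 ± 6.30 CPM (SD, n = 3 each). The log2 fold change was −0.37 ± 0.08, with an adjusted p of 0.0817 by edgeR's quasi-likelihood test and 0.0506 with the replicate block.

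Among the members, the other VEGF receptor and the genes of the angiopoietin receptors had negative fold changes that were not called. *Kdr* (mm9 chromosome 5, 76328852 to 76374483), which encodes VEGFR2, the main signalling receptor for VEGF-A, was at 7.52, 7.99 and 7.97 CPM in E861A and 11.1, 8.46 and 9.92 CPM in WT, without overlap. Its log2 fold change was −0.32 ± 0.10. *Tie1* (mm9 chromosome 4, 118143796 to 118162666), the co-receptor of the angiopoietin system, was at 3.19, 4.44 and 4.21 CPM in E861A and 6.16, 6.12 and 4.54 CPM in WT. Its second E861A library was just under the lowest WT library, and its log2 fold change was −0.50 ± 0.16. *Tek*, which encodes the angiopoietin receptor TIE2, overlapped between genotypes, with a log2 fold change of −0.18 ± 0.11 and an adjusted p of 0.664 by edgeR's quasi-likelihood test. *Ptprb*, the endothelial phosphatase that restrains TIE2, was at 38.6, 49.9 and 47.1 CPM in E861A and 58.9, 59.7 and 50.5 CPM in WT, without overlap, and had −0.31 ± 0.09.

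*Eng* (ENSMUSG00000026814, mm9 chromosome 2, 32502115 to 32538189) encodes endoglin, the endothelial co-receptor of TGF-beta family ligands. It was at 6.06, 7.85 and 7.04 CPM in E861A and 11.6, 7.72 and 10.7 CPM in WT. The genotypes overlapped because WT replicate 2 was below E861A replicate 2. The log2 fold change was −0.51 ± 0.14 (95% interval −0.81 to −0.20), with an adjusted p of 0.238 by edgeR's quasi-likelihood test and 0.131 with the replicate block. *Eng* was called when WT replicate 2 was left out, with a log2 fold change of −0.65 and an adjusted p of 0.0081.

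The last 3 genes of this role are an endothelial enzyme and 2 secreted factors. *Nos3*, the endothelial nitric oxide synthase, was at 1.97, 2.73 and 2.46 CPM in E861A and 3.07, 3.10 and 3.08 CPM in WT, without overlap, and had a log2 fold change of −0.36 ± 0.15. *Egfl7*, a secreted endothelial matrix protein, was at 5.02, 5.40 and 4.99 CPM in E861A and 7.24, 6.22 and 5.60 CPM in WT, without overlap, and had −0.30 ± 0.12. *Vwf*, the von Willebrand factor gene, ranged from 11.2 to 14.99 CPM in E861A and from 11.3 to 20.3 CPM in WT, and had −0.25 ± 0.17.

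The 8 junction and surface genes had a median log2 fold change of −0.28, a level 17.6% lower, and all 8 were negative. Of these, 4 were lower at an unadjusted p under 0.05, beside 4.23% of all tested genes. None of the 8 was called in either fit. *Cldn5* (ENSMUSG00000041378, mm9 chromosome 16, 18776940 to 18778353), the main claudin of the barrier's tight junctions, was at 5.58, 8.79 and 7.75 CPM in E861A and 11.5, 9.27 and 8.49 CPM in WT. The lowest value was in E861A replicate 1, and E861A replicate 2 was above WT replicate 3. The log2 fold change was −0.39 ± 0.15 (95% interval −0.71 to −0.06), with an adjusted p of 0.478 by edgeR's quasi-likelihood test and 0.242 with the replicate block. Its same-numbered pairs differed by −1.04, −0.08 and −0.13 on the log2 scale, so the first pair held most of the difference.

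*Ocln*, which encodes occludin, a second tight junction protein, differed less, with 10.9 to 12.2 CPM in E861A and 10.6 to 12.5 CPM in WT and a log2 fold change of −0.04 ± 0.09 (95% interval −0.23 to 0.15). The adhesion molecule gene *Esam* was at 6.41, 7.28 and 5.55 CPM in E861A and 8.74, 8.51 and 7.48 CPM in WT, the only gene of this role whose genotypes did not overlap, with −0.35 ± 0.11. *Pecam1*, the platelet and endothelial adhesion molecule, had −0.32 ± 0.12, and *Podxl*, a sialomucin of the luminal membrane, −0.29 ± 0.10. The sialomucin gene *Emcn* had −0.27 ± 0.15, and *Cdh5*, the VE-cadherin of adherens junctions, −0.22 ± 0.13. The membrane protein gene *Itm2a* had −0.09 ± 0.10.

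The 3 transcription factor genes were at a few CPM, and none was called. *Erg*, an ETS factor of endothelial identity, had a log2 fold change of −0.22 ± 0.17, and *Sox17*, a factor of arterial identity, −0.10 ± 0.21. *Sox18*, a related endothelial factor, was at 1.70, 1.85 and 1.82 CPM in E861A and 3.34, 1.97 and 1.74 CPM in WT. WT replicate 1 stood above the other 5 libraries, which lay between 1.70 and 1.97 CPM. A fit with edgeR's filterByExpr, which keeps this gene, gave a log2 fold change of −0.39 ± 0.22 with an adjusted p of 0.677, and −0.07 without WT replicate 1.

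The 2 Ly6 surface protein genes did not move together. *Ly6a*, which encodes the Sca-1 antigen and is known to respond to interferon, was the 1 member with a positive fold change. It was at 4.85, 8.32 and 7.78 CPM in E861A and 5.36, 8.14 and 5.85 CPM in WT. The genotypes overlapped throughout, with the lowest value of all in E861A replicate 1, and the log2 fold change was 0.12 ± 0.19 (95% interval −0.30 to 0.54). The sign became negative when E861A replicate 2 or WT replicate 1 was left out. *Ly6c1* had a log2 fold change of −0.20 ± 0.12. Both genes belong to a cluster of related genes on chromosome 15, and reads shared between copies could be lost or split by the counting.

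**Figure D3:**
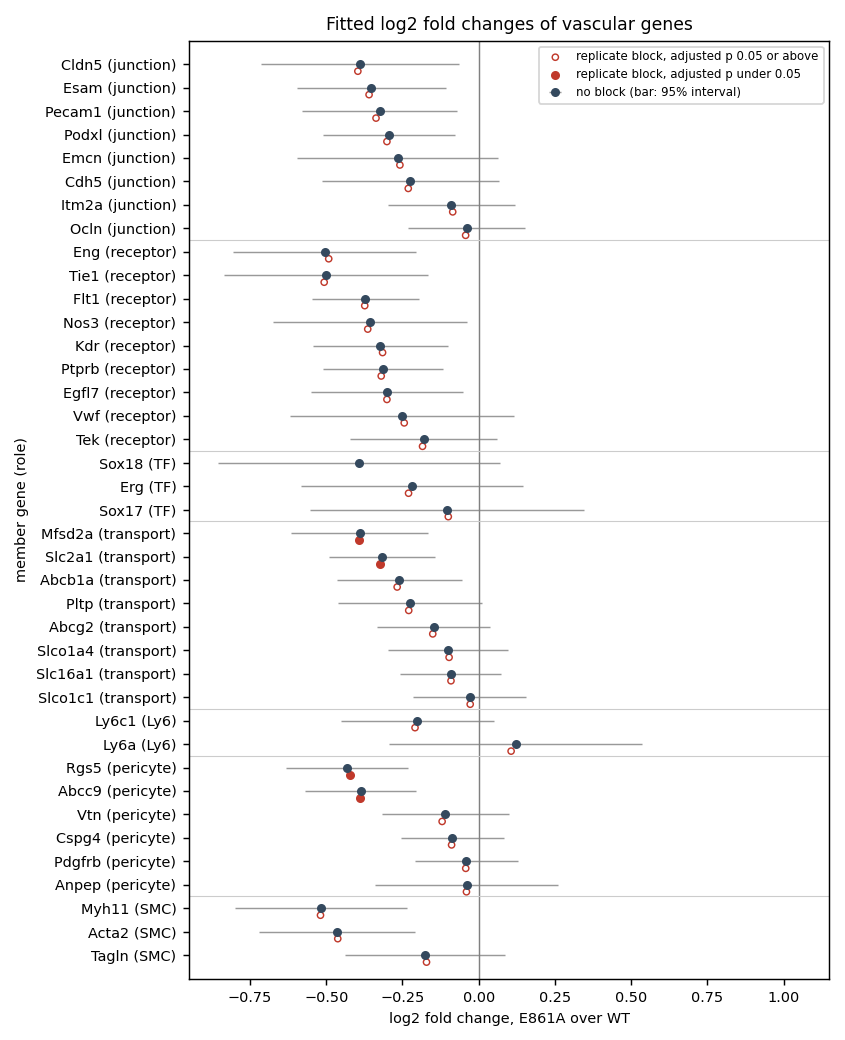
Fitted log2 fold change of each member (x axis, E861A over WT) by role (y axis, SMC for smooth muscle and TF for transcription factors), without the block as blue points with 95% intervals and with the replicate block as red circles, filled where the adjusted p is under 0.05. The 4 filled circles are *Mfsd2a*, *Slc2a1*, *Rgs5* and *Abcc9*, and *Sox18* has a value from the filterByExpr fit only.

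The 6 pericyte genes divided into 2 that fell in the blocked fit and 4 with small differences. *Rgs5* (ENSMUSG00000026678, mm9 chromosome 1, 171585632 to 171625944), a regulator of G-protein signalling abundant in pericytes, was at 56.3, 62.8 and 66.0 CPM in E861A and 97.0, 69.5 and 84.1 CPM in WT. All E861A libraries were below all WT libraries, and the WT libraries were widely spread. The means were 61.7 ± 4.94 and 83.5 ± 13.8 CPM (SD, n = 3 each), 25.9% lower. The log2 fold change was −0.43 ± 0.09, with an adjusted p of 0.0717 by edgeR's quasi-likelihood test and 0.0401 with the replicate block.

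*Abcc9* (ENSMUSG00000030249, mm9 chromosome 6, 142536382 to 142650794) encodes SUR2, the regulatory subunit of the ATP-sensitive potassium channel of mural cells. It was at 8.38, 9.26 and 9.31 CPM in E861A and 11.7, 12.0 and 11.6 CPM in WT. Here both genotypes were tight, and the same-numbered pairs differed by −0.48, −0.37 and −0.32 on the log2 scale. The log2 fold change was −0.39 ± 0.08, with an adjusted p of 0.0776 by edgeR's quasi-likelihood test and 0.0356 with the replicate block. Leaving out any 1 library gave values from −0.42 to −0.33.

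*Pdgfrb*, the PDGF receptor that pericytes need to be recruited, was at 15.8, 17.7 and 15.8 CPM in E861A and 18.4, 17.0 and 15.6 CPM in WT. The libraries of both genotypes were interleaved, and the log2 fold change was −0.04 ± 0.08 (95% interval −0.21 to 0.13). The proteoglycan gene *Cspg4*, which encodes NG2 and is also expressed by oligodendrocyte precursors, had −0.09 ± 0.08. *Vtn*, the vitronectin gene, had −0.11 ± 0.10 and *Anpep*, the aminopeptidase CD13, −0.04 ± 0.14. The pericyte median log2 fold change was −0.10. In whole brain, fewer cells of a type and less RNA per cell cannot be told apart, for mural cells as for endothelium.

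Of the 3 smooth muscle genes, 2 lay lower in E861A without overlap between genotypes, beside 6.81% of all tested genes. *Myh11* (ENSMUSG00000018830, mm9 chromosome 16, 14194620 to 14291501), the smooth muscle myosin heavy chain, was at 4.81, 6.64 and 5.81 CPM in E861A and 9.56, 7.80 and 7.53 CPM in WT. *Acta2* (ENSMUSG00000035783, mm9 chromosome 19, 34315580 to 34329826), the smooth muscle actin, was at 3.50, 3.72 and 3.65 CPM in E861A and 5.58, 4.65 and 4.82 CPM in WT. In both genes the highest WT value was in replicate 1. Their log2 fold changes were −0.52 ± 0.13 and −0.46 ± 0.12, 30.1% and 27.5% lower. For each, the adjusted p of edgeR's quasi-likelihood test was 0.175, and 0.0902 with the replicate block. *Tagln*, the actin-binding transgelin, overlapped and had −0.18 ± 0.12.

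Of the members that fell in the blocked fit, the promoters of the 2 with a motif match are shown beside these values. The windows of the others, *Slc2a1* and *Abcc9*, held none of the motifs searched. Each line gives the 250 bases before the RefSeq start site (GRCm38.p6), on the strand of the gene, with the motif match in capitals. *Mfsd2a* (chr4:122961189-122961438, minus strand) holds a match to the interferon-response motif GAAANNGAA, in reverse, from base −192. *Rgs5* (chr1:169655251-169655500, plus strand) holds the SOX motif ACAAT from base −89.
Mfsd2a: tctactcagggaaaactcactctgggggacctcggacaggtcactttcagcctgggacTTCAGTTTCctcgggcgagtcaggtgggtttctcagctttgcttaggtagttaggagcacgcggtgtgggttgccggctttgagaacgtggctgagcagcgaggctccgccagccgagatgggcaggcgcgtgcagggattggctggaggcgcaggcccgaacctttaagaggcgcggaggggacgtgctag
Rgs5: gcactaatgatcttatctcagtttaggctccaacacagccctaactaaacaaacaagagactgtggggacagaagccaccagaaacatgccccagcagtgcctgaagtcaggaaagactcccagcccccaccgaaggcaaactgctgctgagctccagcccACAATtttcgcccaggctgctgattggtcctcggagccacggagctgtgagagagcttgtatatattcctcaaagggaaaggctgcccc

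Promoter windows were matched for 26 of 39 members, in 34 windows of 300 bases, and each motif was searched on both strands. GAAANNGAA was in 5 member windows (14.7%) and in 8.56% of all 32851 windows, and the 5 genes were *Abcg2*, *Erg*, *Mfsd2a*, *Slco1c1* and *Vtn*. The interferon-gamma motif TTCNNNGAA was in 1 member window, that of *Vtn*, and in 8.30% of all windows. ACAAT was in 7 member windows (20.6%) and in 31.0% of all windows. The CArG box of smooth muscle genes was searched only as CCWWWWWWGG, with W for A or T, and variants of it were not searched. This form was in 0 member windows and 1.63% of all windows. The window of *Acta2* was the only smooth muscle window among the member windows. Matches of different motifs may overlap, and a match is a description of letters only.

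Compared per length of exon, in CPM per kilobase, the members spanned a wide range, and no role held all of the top places. *Slc2a1* and *Rgs5* led with means over all libraries of 16.5 and 15.96, followed by *Vtn* with 14.4 and *Slco1c1* with 13.4. *Slc2a1* was at 14.7 in E861A and 18.3 in WT on this scale, and *Rgs5* at 13.6 and 18.4. *Cldn5* was at 6.05, *Flt1* at 4.88, *Pdgfrb* at 3.05 and *Acta2* at 2.43. The lowest per length were *Nos3* with 0.662 and *Emcn* with 0.563. *Vtn* and *Slco1c1*, near the top of this order, had the small log2 fold changes given above.

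Other genes of the vessel pathways were read from 12 lists with 150 genes, of which 112 were tested. Leaving out the interferon list and the members themselves, 75 of 100 tested genes were lower, against 50.5% of all tested genes. At an unadjusted p under 0.05, 20 of the 100 were lower, beside 4.23% of all tested genes. At that p, 0 were higher, beside 4.78% of all tested genes. By edgeR's quasi-likelihood test 0 of the 100 were called, and 1 was called lower with the replicate block, beside 0.403% of all tested genes. That gene was *Col4a2*, a collagen of the vascular basement membrane, at 35.4, 37.0 and 36.6 CPM in E861A and 47.7, 41.6 and 41.8 CPM in WT. Its log2 fold change was −0.26 ± 0.06, with an adjusted p of 0.0956 by edgeR's quasi-likelihood test and 0.0479 with the block.

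By list, the basement membrane genes were lower in 10 of 12 tested, at a median of −0.11 (log2 fold change), and 5 were lower without overlap. Of all tested genes, 50.5% were lower, and 6.81% were lower without overlap. The further mural genes were lower in 7 of 7 with a median of −0.12, and the artery, capillary and vein zone genes in 7 of 8 with −0.15. Notch signalling genes were lower in 7 of 10 with −0.12. The Wnt and Norrin genes that induce the barrier were lower in 9 of 13 with −0.08, further transport genes in 10 of 14 with −0.04, and TGF-beta and sphingosine genes in 7 of 9 with −0.03. Further tight junction genes were lower in 9 of 11 with −0.02, and endothelial activation genes in 2 of 4 with −0.02. The VEGF, angiopoietin and PDGF list, mostly ligands and co-receptors of the receptors above, was lower in 4 of 9 with a median of 0.00. In the Ly6 list, which holds both Ly6 members, 4 of 5 were lower with −0.06.

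Among the 12 lists, the interferon-stimulated reference list was the only 1 with calls in edgeR's quasi-likelihood test without a block. All 10 tested genes rose in E861A, and their median log2 fold change was 1.66. *Ifit1*, an antiviral protein that binds foreign RNA ends, was at 9.91, 9.43 and 9.27 CPM in E861A and 2.10, 2.39 and 2.63 CPM in WT. All E861A libraries were far above WT. Over the whole list of 12 genes the summed CPM was 122, 133 and 143 in E861A and 74.3, 75.0 and 69.9 in WT, without overlap and with E861A replicate 1 the lowest of its genotype. The vascular members differed from this list in direction, with *Ly6a* the 1 positive value.

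Markers of other brain cells were read in the same libraries, and their part in the vascular values was not tested. The summed CPM of the 30 endothelial members was 424, 523 and 479 in E861A and 601, 560 and 523 in WT, which met at E861A replicate 2 and WT replicate 3. The 9 mural members summed to 138, 159 and 151 CPM in E861A and 198, 171 and 178 CPM in WT, without overlap. *Rgs5* made up 43.8% of the mural sum, and the other 8 mural members summed to 81.3, 95.9 and 84.9 CPM in E861A and 100.8, 101.8 and 93.6 CPM in WT, with overlap. The ratios of the means were 0.847 for endothelial and 0.818 for all 9 mural members. Neuron markers (5 genes) summed to 3661 to 3768 CPM in E861A and 3782 to 3855 CPM in WT, lower without overlap at a ratio of 0.973. By itself, 1 of the 5 genes was lower without overlap, beside 6.81% of all tested genes. Oligodendrocyte markers (5 genes) had a ratio of 1.00, microglia markers (5 genes) 0.940 and perivascular macrophage markers (5 genes) 1.10, all with overlap.

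A few other cell type lists separated the genotypes. Perivascular and meningeal fibroblast markers (6 genes) were higher, at 84.6 to 99.1 CPM in E861A and 62.8 to 73.7 CPM in WT. The collagen genes *Col1a2* and *Col3a1* rose, with log2 fold changes of 0.42 ± 0.08 and 0.57 ± 0.11 and adjusted p of 0.0199 and 0.0316 by edgeR's quasi-likelihood test. Choroid plexus markers (6 genes) were at 214 to 323 CPM in E861A and 379 to 403 CPM in WT. *Ttr*, the transthyretin gene of that epithelium, made up 89.2% of this sum and had a log2 fold change of −0.51 ± 0.12 and an adjusted p of 0.124 by edgeR's quasi-likelihood test, or 0.0241 with the replicate block. The other 5 choroid plexus markers summed to 30.7 to 36.8 CPM in E861A and 38.1 to 39.9 CPM in WT. By themselves, 2 of the 6 were lower without overlap, beside 6.81% of all tested genes. Astrocyte markers (5 genes) were at 4647 to 4845 CPM in E861A and 4051 to 4278 CPM in WT, mostly *Slc1a2*, the glutamate transporter GLT-1, which rose only with the replicate block (log2 fold change 0.20, adjusted p 0.0374 by edgeR's quasi-likelihood test). Erythrocyte markers (3 of 5 matched) overlapped, at 26.5 to 37.3 CPM in E861A and 30.3 to 51.5 CPM in WT. None of these lists had a marker at 0 in all libraries.

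**Figure D4:**
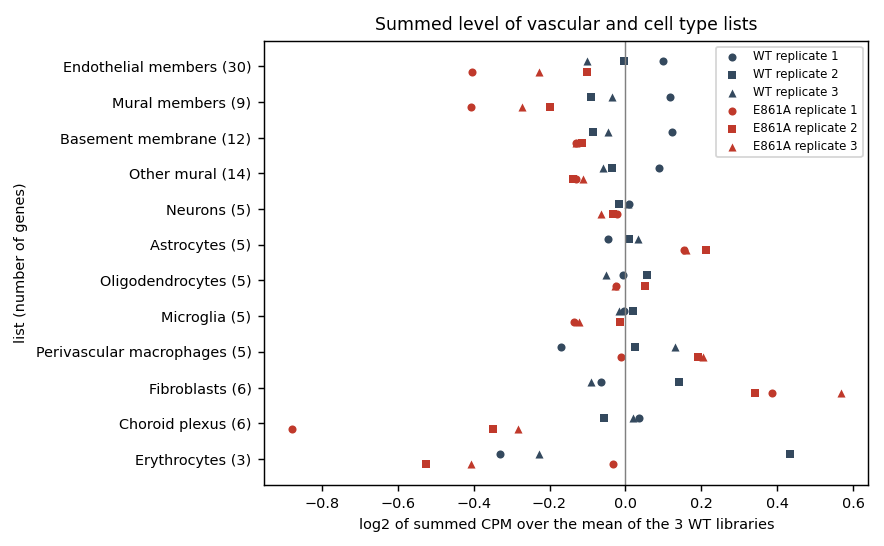
Summed level of the vascular members, 2 vessel lists and cell type marker lists in each library (x axis, log2 of the summed CPM over the mean of the 3 WT libraries; y axis, the list with its number of genes), WT in blue and E861A in red with the shape giving the replicate number. The mural members, choroid plexus markers and, by a small margin, neuron markers lie lower in E861A without overlap, the fibroblast and astrocyte markers higher, the basement membrane and further mural lists also lie lower without overlap, and the endothelial members meet at the border. The further mural sum, 191 to 195 CPM in E861A and 202 to 224 CPM in WT, was mostly 1 gene, *Zic1*. That gene was at 143, 137 and 141 CPM in E861A and 163, 149 and 149 CPM in WT.

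The annotation limits some single members. In total, 8 members overlap a gene on the opposite strand, among them *Slc2a1*, *Abcc9*, *Eng* and *Nos3*, and 4 a gene on the same strand. The libraries were stranded, but the strand setting of the counting is not given in the sources used here. *Mfsd2a*, *Rgs5* and *Flt1* have no overlapping gene in the annotation.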

How the data were processed

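Whole-brain total RNA from 3 *Adar1* E861A/E861A *Ifih1*-/- and 3 *Adar1*+/+ *Ifih1*-/- mice was depleted of ribosomal RNA and sequenced as stranded paired-end libraries. Per the labels, the authors trimmed reads with Trimmomatic 0.36, aligned them to mm9 with STAR 2.5.2a and used edgeR. They deposited raw counts per gene, which were used as deposited. All 37310 gene identifiers matched GENCODE vM1 (NCBIM37), which gave coordinates and exon lengths. Per-sample columns without a sample numbered 0.

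The 13649 genes that reached 2 CPM in each of the 3 libraries of either genotype were tested with edgeR 4.0.16 in R 4.3.3 (TMM scaling, quasi-likelihood test, Benjamini-Hochberg adjustment over all tested genes). *Sox18* was fitted after filterByExpr. Replicate numbers come from the labels, and what they share is not given in the sources used here. Same-numbered libraries deviated together from their genotype means (r = 0.23, 0.34 and 0.12 over genes, against −0.26 to 0.05 for other combinations). A fit with the replicate number as a block is therefore given beside the fit without it. The block was chosen from these same counts, and the study describes no pairing of animals. Alternatives used DESeq2 1.42.0, limma 3.58.1, other scalings and filters, GC offsets and the omission of each library. Statistical steps were tested on simulated data. In these, 37 of 50 genes were called at a true log2 fold change of −0.4 and 39 of 47 at 0.4. All 52 genes at −1 and all 50 at 1 were called. Beside these, 19 unchanged genes were called among 13684 tested. Summed CPM values and medians carry no test.

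The named genes are all members, with library values for those called or not overlapping, and listed genes that were called or define a cell type. The members and lists were chosen with earlier results of these data known. Promoter windows came from RefSeq (GRCm38.p6). No library was a duplicate of another.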

Additional observations from a re-analysis of the deposited data

How the results depend on the processing

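The members called were 0 in the reported fit and with limma-voom, RLE scaling, no scaling factor and a CPM of 2 in any 3 libraries. They were 2 with DESeq2 (*Flt1*, *Slc2a1*), 7 with the edgeR likelihood ratio test, 3 with filterByExpr (*Flt1*, *Rgs5*, *Abcc9*), 15 with no filter beyond 1 count, 4 with the replicate block, 2 with GC offsets (*Rgs5*, *Abcc9*), 3 with both (*Slc2a1*, *Rgs5*, *Abcc9*) and 0 to 5 when a library was left out. All genes called numbered 69, with 139 in the likelihood ratio test, 110 with filterByExpr, 376 with no filter, 158 with the replicate block and 42 to 113 over the omissions. Genes called lower were 13 of 13649 in the reported fit, 23 of 19366 with filterByExpr and 158 of 29282 with no filter. They were 16 of 13649 with GC offsets, 35 of 13649 with GC offsets and the block, and 9 to 36 over the omissions. Listed genes called numbered 10, with 19 when no filter was used and 8 to 12 over the omissions. The pairing changed no call of a single member other than the 4 named in the report. The cause of these differences was not tested.

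Of 646 values of single members under the alternatives, 589 kept direction and side of the threshold, 45 newly passed it and 12 changed sign. The sign changes came from leaving out 1 library, in members that were not called. Over these omissions log2 fold changes ran from −0.12 to 0.064 in *Slco1c1*, −0.29 to 0.16 in *Sox17*, −0.11 to 0.013 in *Ocln*, −0.048 to 0.34 in *Ly6a*, −0.19 to 0.017 in *Slco1a4*, −0.16 to 0.029 in *Itm2a*, −0.11 to 0.011 in *Pdgfrb* and −0.16 to 0.064 in *Anpep*. The median ran from −0.36 to −0.15 for endothelial and from −0.26 to −0.15 for mural members, members lower from 33 to 38, members lower at an unadjusted p under 0.05 from 12 to 24, and non-overlapping members from 13 to 24. *Sox18* ran from −0.57 to −0.07. Standard errors of the log2 fold changes ran from 0.08 in *Slc16a1* to 0.22 in *Sox18*, the member with the lowest mean CPM.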
